A study of Mus musculus with 14 samples.

Results

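The Klf4 and Esrrb loci were examined as 2 windows of the mouse genome (build mm9): chr4:55460001-55560000, which holds Klf4 and 100 kb around and downstream of it, and chr12:87690001-87870000, 180 kb around Esrrb. All 200-bp bins with at least 1 CpG count in any of 8 libraries, and all peaks that touch a window, were taken. This gave 388 bins for Klf4 and 775 for Esrrb, 1163 of the 7282466 bins in the files. The windows are set by position around genes picked with earlier results of these data known.

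The data are ChIP-BS-seq libraries of H3K4me1 and H3K27ac, in which chromatin carrying a histone mark is immunoprecipitated and its DNA bisulfite-treated, so that occupancy and the methylation (5mC) of the marked DNA are read together. All cells came from the mouse ESC line R1, kept in serum, LIF and inhibitors of MEK and GSK3 (2i). ESCs had then spent 2 days without 2i. Differentiated cells had spent 4 days in 1 µM retinoic acid without LIF, a culture that holds a mixture of cell states. XEN cells, named after extraembryonic endoderm, had been made from R1 by 9 days with 0.1 µM retinoic acid plus Activin A. Each mark had 1 library in ESCs, 1 in differentiated cells and 2 in XEN cells. Single-cell RNA values were not used, so the cell states were not checked against marker genes here.

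Klf4 (a zinc-finger factor) and Esrrb (an orphan nuclear receptor) are transcription factors of the naive pluripotency network. Both genes are active in naive ESCs and are turned down as cells leave that state, and both lie among long clusters of enhancers. H3K4me1 marks primed and active enhancers, H3K27ac marks active enhancers and promoters, and the DNA of active elements usually carries little 5mC.

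The promoters of the genes are shown because the assay can read methylation only at CpGs, and these promoters differ in how many they hold. They come from RefSeq on another build, GRCm38.p6, run from 250 bases before to 50 bases after a start site, and have CpGs in capitals. The Klf4 promoter is at chr4:55532426-55532725 on the minus strand, and the Esrrb promoters are at chr12:86360867-86361166 and chr12:86421394-86421693 on the plus strand. These positions cannot be set against the mm9 positions given elsewhere, so which bins lie on them was not determined.
Klf4 promoter: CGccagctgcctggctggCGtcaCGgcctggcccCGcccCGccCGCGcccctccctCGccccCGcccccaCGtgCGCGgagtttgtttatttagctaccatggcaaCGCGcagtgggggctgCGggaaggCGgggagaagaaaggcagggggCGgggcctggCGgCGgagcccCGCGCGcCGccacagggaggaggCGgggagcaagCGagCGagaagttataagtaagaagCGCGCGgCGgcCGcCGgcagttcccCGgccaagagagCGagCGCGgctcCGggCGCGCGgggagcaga
Esrrb promoter 1: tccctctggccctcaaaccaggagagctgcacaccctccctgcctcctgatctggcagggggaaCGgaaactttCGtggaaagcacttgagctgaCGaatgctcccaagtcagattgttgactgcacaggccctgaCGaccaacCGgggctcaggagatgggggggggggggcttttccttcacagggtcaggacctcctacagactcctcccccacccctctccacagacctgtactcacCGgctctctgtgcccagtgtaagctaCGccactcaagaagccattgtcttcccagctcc
Esrrb promoter 2: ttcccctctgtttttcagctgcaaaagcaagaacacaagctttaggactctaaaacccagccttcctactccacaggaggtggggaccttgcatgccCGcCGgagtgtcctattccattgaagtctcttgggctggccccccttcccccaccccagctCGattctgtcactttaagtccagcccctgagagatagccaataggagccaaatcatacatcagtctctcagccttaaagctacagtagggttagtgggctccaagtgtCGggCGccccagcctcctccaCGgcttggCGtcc

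The Klf4 promoter held 40 CpGs in its 300 bases, more than 96.1% of the 32851 mouse promoters of that length. Each Esrrb promoter held 7, which is the median of all promoters. The KLF box CACCC, read on both strands, occurred 2 times in the first Esrrb promoter, 1 time in the second and not in these bases of the Klf4 promoter. It was present in 57.5% of all promoters. The STAT-type motif TTCNNNGAA was present 1 time in the first Esrrb promoter and in 8.30% of all promoters. Neither CAAGGTCA, the motif of ESRRB itself, nor CTTTGAT, the TCF motif, was found in the 3 promoter sequences. They were present in 1.56% and 3.73% of all promoters. 

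The libraries held between 12147115 and 58803653 CpG counts. Occupancy is given as CPM, CpG counts per 1000000 CpG counts of the library. It counts CpGs and not reads, so an element rich in CpGs has more counts, and levels are best compared for 1 element across libraries. Intervals are 95% counting intervals, which leave out the spread between cultures, and with 1 library per mark in ESCs and in differentiated cells no test of occupancy was run. The XEN libraries went against their labels and were therefore kept apart. Across 293304 bins, the counts of the 2 libraries labelled H3K27ac had Spearman correlations of 0.68 and 0.72 with H3K4me1 of differentiated cells and of 0.36 and 0.36 with H3K27ac of those cells. For the 2 labelled H3K4me1 these were 0.29 and 0.29 with H3K4me1, and 0.58 and 0.59 with H3K27ac. The names of the deposited XEN files also give the marks the other way round. The labels were followed, and XEN occupancy and bin results of both windows are also given with the marks of the file names.

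At Esrrb both marks were far lower in differentiated cells than in ESCs. H3K27ac occupancy of the window was 336 CPM in ESCs and 50.1 CPM in differentiated cells, a log2 ratio of -2.75 (interval -2.83 to -2.67), or 6.72-fold lower. H3K4me1 was 348 CPM and 102 CPM, a log2 ratio of -1.77 (interval -1.82 to -1.73). The H3K27ac peaks went from 10 peaks over 84.0 kb to 4 peaks over 6.59 kb, which is 7.84% of the length in ESCs. Over the genome the peak length in differentiated cells was 101% of that in ESCs. H3K4me1 had 16 peaks in each state, which covered 127 kb in ESCs and 30.4 kb in differentiated cells, 23.9% of the ESC length against 87.9% over the genome. Among peaks that scored above the median of their list, 10 ESC peaks and 3 peaks of differentiated cells remained for H3K4me1, and 7 and 1 for H3K27ac. In these bulk libraries a mark lost from some of the cells and a weaker mark in all cells cannot be told apart.

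At Klf4 the sum over the window differed less between the cell states. H3K27ac was 219 CPM in ESCs and 182 CPM in differentiated cells, a log2 ratio of -0.26 (interval -0.31 to -0.21). H3K4me1 was 144 CPM and 126 CPM, a log2 ratio of -0.19 (interval -0.24 to -0.14). These ratios are small enough for the scaling to matter. Scaled to the median bin, they were -0.41 for H3K27ac and -0.44 for H3K4me1. The H3K27ac peaks covered 48.4 kb with 9 peaks in ESCs and 31.1 kb with 10 peaks in differentiated cells, 64.3% of the ESC length. For H3K4me1 the length went from 66.4 kb with 14 peaks to 45.6 kb with 12, or 68.7%. The direction of the peak numbers turned among peaks scoring above the median of their list, with 8 and 6 for H3K27ac and 6 and 7 for H3K4me1. Single elements of the window moved in opposite ways, as described next.

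**Figure D1:**
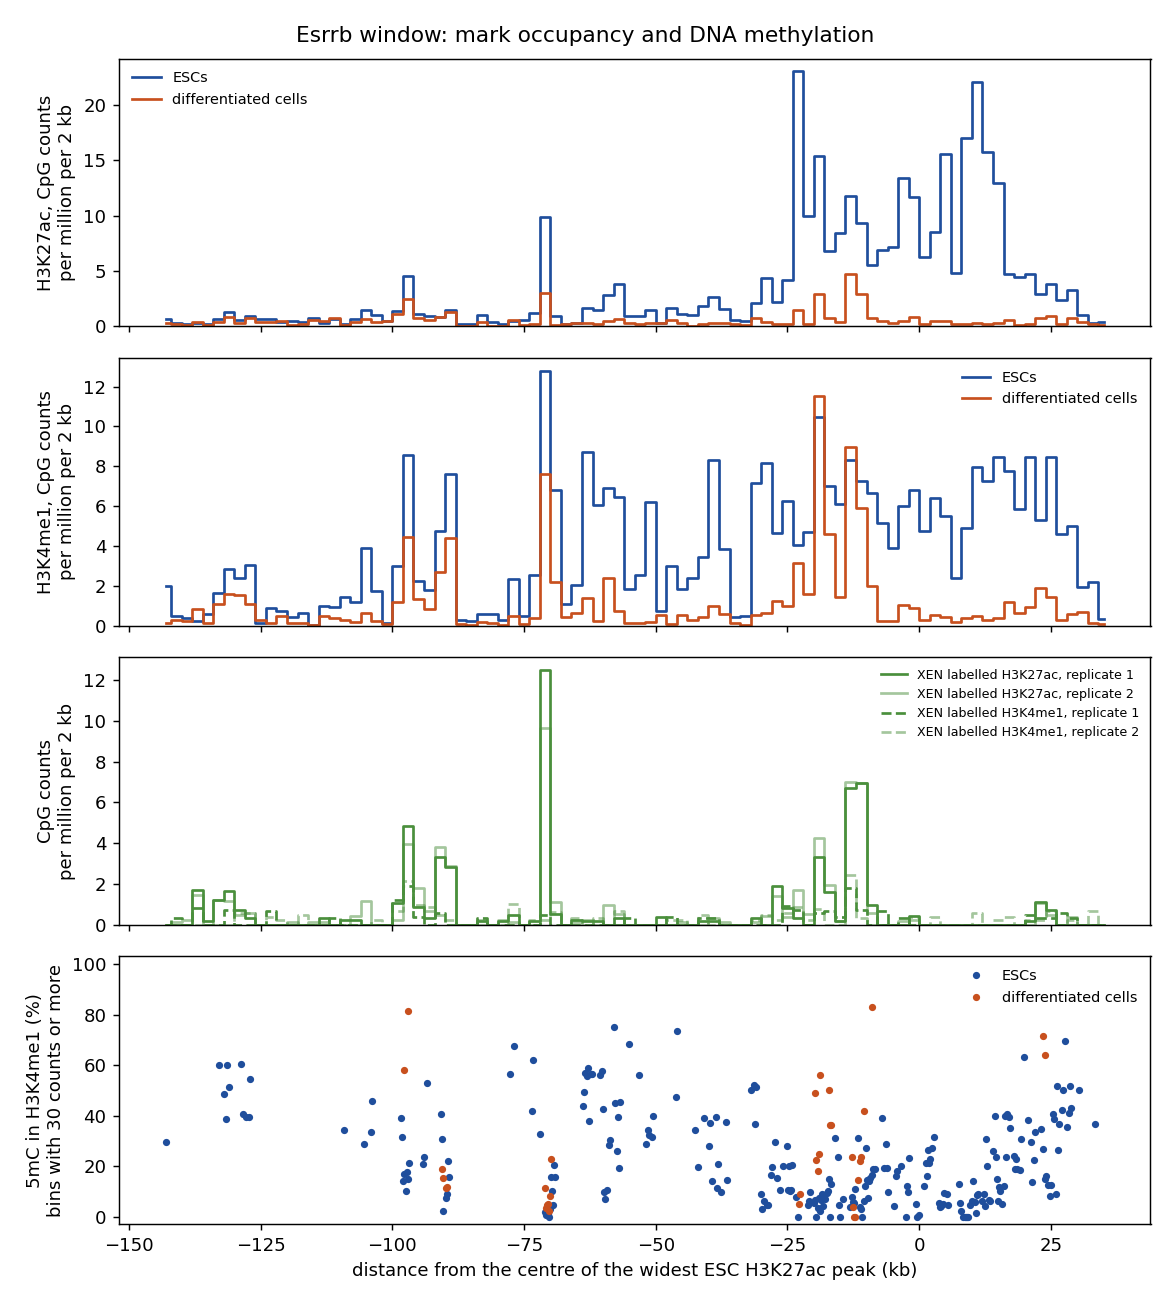
Occupancy of the Esrrb window in steps of 2 kb (CPM, upper 3 panels, 1 line per library) and 5mC of H3K4me1 bins with at least 30 CpG counts (percent, lowest panel, 1 point per bin), against the distance in kb from the centre of the widest ESC H3K27ac peak. The domain of 61.3 kb around 0 carried H3K27ac along its length in ESCs, and in differentiated cells little of it was left outside a stretch to the left of the centre.

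**Figure D2:**
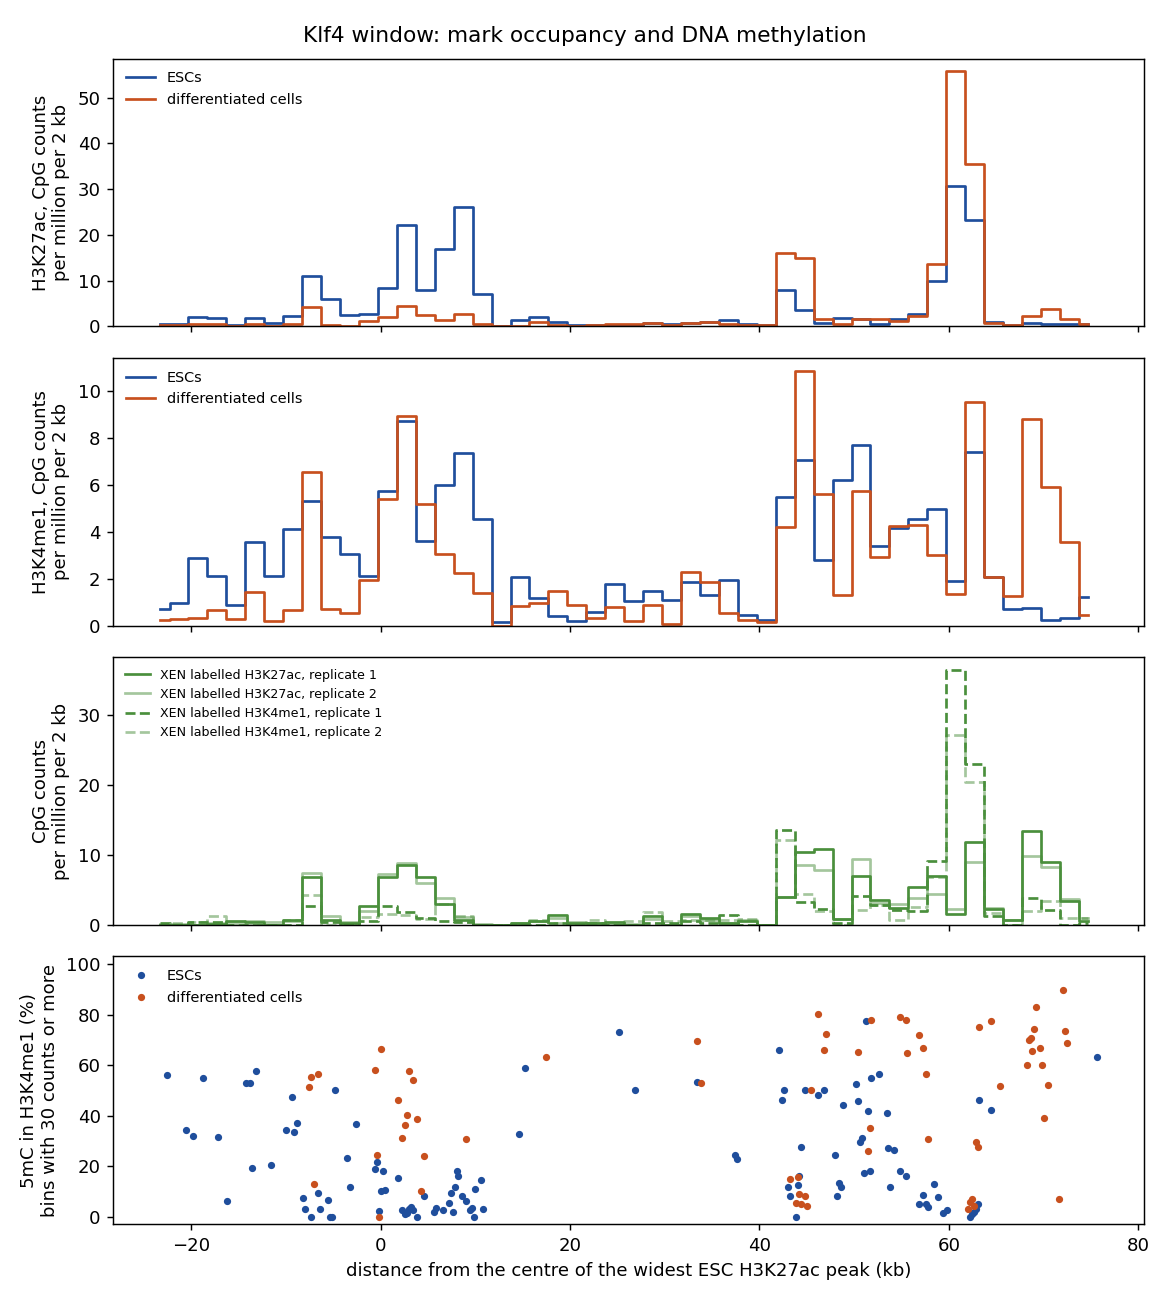
Occupancy of the Klf4 window and 5mC of its H3K4me1 bins, drawn in the same way (CPM per 2 kb, and percent, against distance in kb). The domain of 23.6 kb around 0 had less H3K27ac in differentiated cells than in ESCs, while the 2 elements with the most H3K27ac in the right part of the window, 6 and 10, had more.

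H3K27ac peaks of ESCs and of differentiated cells were merged where they overlapped, and the merged peaks, called elements, were numbered by position. Klf4 had 11 and Esrrb 10. At Klf4 4 had a peak in ESCs alone, 2 in differentiated cells alone (elements 8 and 11) and 5 in both states. At Esrrb 8 had a peak in ESCs alone and 2 in both (elements 2 and 10). Of the 138229 merged elements of the genome, 33.0% had a peak in ESCs alone, 34.0% in differentiated cells alone and 33.0% in both. The peaks were called on the same H3K27ac counts, so their H3K27ac levels are a description. Whether an element lies in an exon, an intron or between genes was not determined, because no mm9 gene annotation was used. Of the elements with at least 100 H3K27ac counts over ESCs and differentiated cells, 6 of 7 at Esrrb were more than 2-fold lower in differentiated cells and 0 were more than 2-fold higher, with a median log2 ratio of -2.50. At Klf4, 3 of 6 were more than 2-fold lower and 2 were more than 2-fold higher, with a median of -0.51. Among 58971 such elements of the genome the median was 0.03, and 26.5% were more than 2-fold lower and 26.5% higher. Of all elements, without the minimum on counts, 9 of 10 at Esrrb and 7 of 11 at Klf4 were lower, as were 49.3% of 138019 elements of the genome with any counts.

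**Figure D3:**
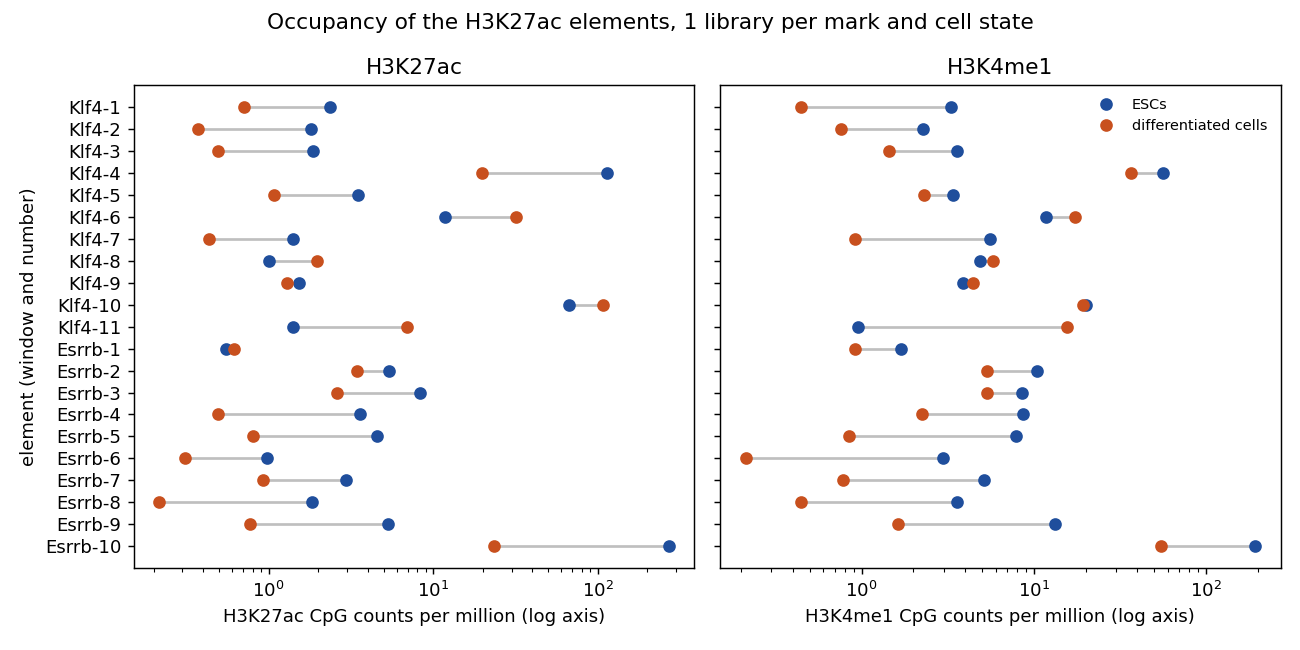
H3K27ac and H3K4me1 occupancy of each element in ESCs and in differentiated cells (CPM, log axis, 1 point per library). Esrrb element 10 had 271 CPM of H3K27ac in ESCs and 23.5 CPM in differentiated cells and Klf4 element 4 had 114 and 19.7 CPM, while Klf4 elements 6, 10 and 11 were higher in differentiated cells.

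Esrrb element 10, at chr12:87803348-87864604, is an H3K27ac domain of 61.3 kb and by peak score the 15th of 100469 H3K27ac peaks in ESCs. Its H3K27ac was 271 CPM in ESCs and 23.5 CPM in differentiated cells, 11.5-fold lower, with a log2 ratio of -3.53 (interval -3.64 to -3.42). Its H3K4me1 was 193 CPM and 55.1 CPM, a log2 ratio of -1.81 (interval -1.87 to -1.75). The active mark was thus lower by a larger factor than the mark that also sits on primed enhancers. The counts of both marks held more 5mC in differentiated cells, 37.5% against 8.24% in H3K27ac and 44.4% against 15.4% in H3K4me1. Of the 758 H3K27ac counts of differentiated cells, 415 lay outside their H3K27ac peaks, at 0.230 CPM per kb. The 37.5% is therefore not a value of peak DNA alone.

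The loss of signal was uneven along this domain. Inside the H3K27ac peaks that differentiated cells still had, 5.29 kb of the domain, H3K4me1 was 4.54 CPM per kb in ESCs and 4.64 CPM per kb in differentiated cells (log2 ratio 0.03, interval -0.08 to 0.15). H3K27ac there was 6.19 and 2.01 CPM per kb, a log2 ratio of -1.63. Over the other 56.0 kb, H3K4me1 was 3.02 and 0.545 CPM per kb and H3K27ac was 4.25 and 0.230 CPM per kb, log2 ratios of -2.47 and -4.21. The 5mC of H3K4me1 DNA was 7.15% in ESCs and 27.7% in differentiated cells inside those peaks, and 16.6% and 57.8% outside them. For H3K27ac counts it was 4.31% and 20.7% inside, and 8.78% and 51.3% outside. Peaks of differentiated cells chose the inner stretch, so the split describes the domain and tests nothing.

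Most of the smaller Esrrb elements followed the domain in direction. H3K27ac of element 4 (chr12:87773428-87775259) was 3.62 CPM in ESCs and 0.495 CPM in differentiated cells, that of element 5 was 4.54 and 0.805 CPM, and that of element 9 (chr12:87793663-87799225) was 5.31 and 0.774 CPM. Their log2 ratios were -2.87, -2.50 and -2.78. Element 2 (chr12:87735432-87737851) differed least of those with enough counts, 5.37 against 3.44 CPM, a log2 ratio of -0.64 (interval -1.001 to -0.29). Its 5mC was nevertheless higher in differentiated cells, 49.5% against 23.4% in H3K27ac and 64.1% against 22.7% in H3K4me1.

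Esrrb element 3, at chr12:87762526-87763780, stayed poor in 5mC. Its H3K27ac was 8.29 CPM in ESCs and 2.60 CPM in differentiated cells, a log2 ratio of -1.67 (interval -2.04 to -1.31), and its H3K4me1 was 8.50 and 5.36 CPM. The 5mC was 1.11% and 4.76% of the counts in H3K27ac and 1.40% and 5.53% in H3K4me1. None of its 5 bins with enough H3K4me1 counts was called different, and their median difference was 2.96 points. At Esrrb, lower occupancy by H3K27ac was therefore found both with a large difference in 5mC and with a small one.

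Klf4 element 4, at chr4:55472465-55496091, is the widest of its window (23.6 kb, rank 188 by score). H3K27ac was 114 CPM in ESCs and 19.7 CPM in differentiated cells, 5.76-fold lower, with a log2 ratio of -2.52 (interval -2.65 to -2.40). H3K4me1 was 56.4 and 36.7 CPM, a log2 ratio of -0.62 (interval -0.70 to -0.53). The 5mC went with H3K27ac occupancy in the opposite direction, from 6.40% to 39.0% in H3K27ac and from 12.9% to 44.0% in H3K4me1. In the 10.8 kb inside H3K27ac peaks of differentiated cells, H3K4me1 was 2.85 and 2.82 CPM per kb (log2 ratio -0.01, interval -0.12 to 0.09), and in the other 12.8 kb it was 1.99 and 0.487 CPM per kb. Unlike at Esrrb element 10, the 5mC of H3K4me1 DNA in differentiated cells was alike in the inner and outer stretches, 43.5% and 46.8%. It had been 10.7% and 15.6% in ESCs.

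Klf4 element 10, at chr4:55540646-55549840, carried more H3K27ac in differentiated cells, 107 CPM against 67.4 CPM in ESCs, a log2 ratio of 0.67 (interval 0.59 to 0.75). Its H3K4me1 was 20.2 CPM in ESCs and 19.4 CPM in differentiated cells, a log2 ratio of -0.06 (interval -0.18 to 0.07). The DNA under H3K27ac was nearly free of 5mC in both states, 2.27% and 3.69%. The DNA under H3K4me1 held 10.8% in ESCs and 33.9% in differentiated cells. These sums take in bins where the other mark had few counts. In differentiated cells 5 bins had enough counts of both marks. None of them was called different between the marks, and their median difference was 1.94 points. Within the element, H3K4me1 DNA inside H3K27ac peaks of differentiated cells held 6.02% and 22.4%, and outside them 25.6% and 69.3%.

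Klf4 elements 6 and 11 also had more H3K27ac in differentiated cells. Element 6 (chr4:55526907-55531133) had 11.8 CPM of H3K27ac in ESCs and 32.0 CPM in differentiated cells, a log2 ratio of 1.44 (interval 1.27 to 1.61), and 11.8 and 17.3 CPM of H3K4me1. Its 5mC was alike in the 2 states, 9.87% and 10.5% in H3K27ac and 27.01% and 26.8% in H3K4me1. Element 11 (chr4:55552864-55557612) had 1.41 and 6.93 CPM of H3K27ac, a log2 ratio of 2.30 (interval 1.83 to 2.79). Its H3K4me1 was 0.952 CPM in ESCs and 15.6 CPM in differentiated cells, a log2 ratio of 4.03 (interval 3.64 to 4.45), so this element was almost unmarked by H3K4me1 in ESCs. Its H3K4me1 counts held 57.1% 5mC in ESCs (56 counts) and 59.9% in differentiated cells. Its H3K27ac counts held 69.6% in ESCs (46 counts, interval 54.2 to 82.3) and 44.6% in differentiated cells (interval 38.0 to 51.4). The element had no H3K27ac peak in ESCs, so its ESC values may not be of marked DNA. Elements 1 and 5 were lower, 2.36 against 0.712 CPM and 3.50 against 1.08 CPM of H3K27ac (log2 ratios -1.73 and -1.69). In H3K4me1, element 1 held 46.9% of 194 counts in ESCs and 47.6% of 21 counts in differentiated cells (interval 25.7 to 70.2). Element 5 held 49.8% and 60.6%.

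**Figure D4:**
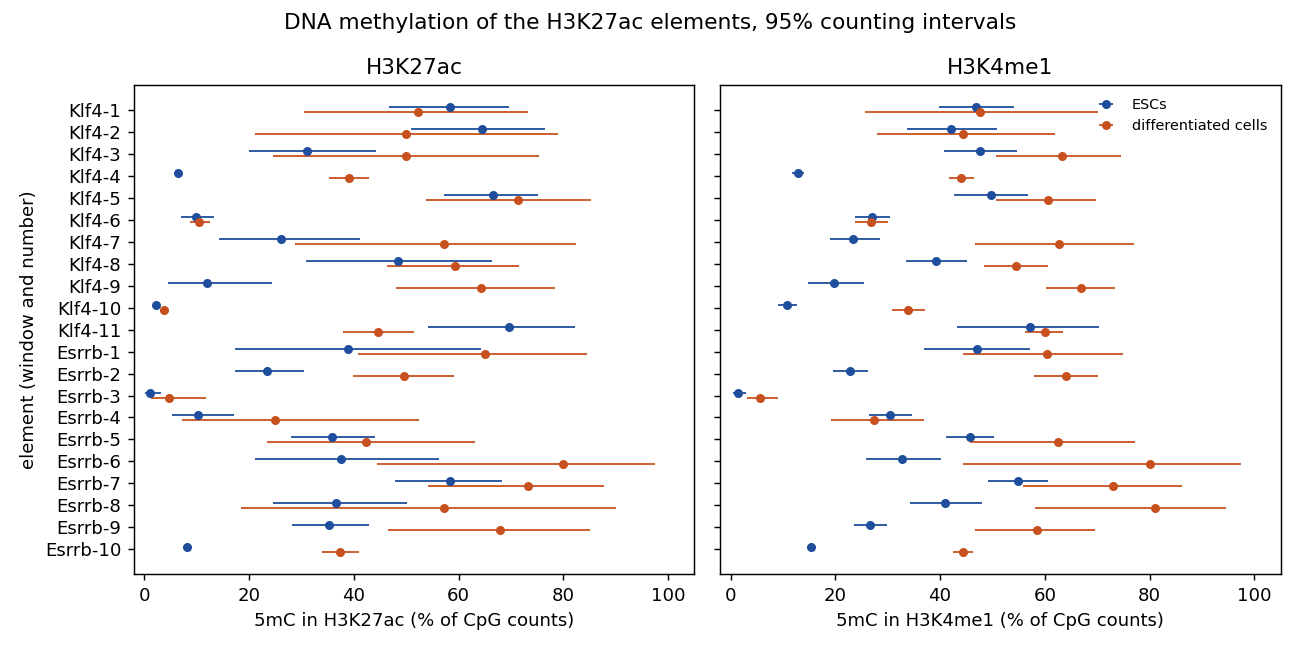
5mC of each element (percent of CpG counts) in H3K27ac and H3K4me1 libraries of ESCs and differentiated cells; bars are 95% counting intervals. H3K4me1 DNA of Klf4 element 4 went from 12.9% to 44.0% and that of Esrrb element 10 from 15.4% to 44.4%, while Esrrb element 3 stayed under 6% in all 4 libraries.

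Single bins were tested for 5mC with Fisher's exact test where both libraries had at least 30 counts, with p-values adjusted over all such bins of the genome by the Benjamini-Hochberg method. The test compares 2 libraries and does not cover the spread between cultures. In H3K4me1, 24 of 41 Klf4 bins had higher 5mC in differentiated cells than in ESCs and 2 had lower. At Esrrb, 17 of 32 were higher and 0 lower. Over the genome 47.7% of 205241 bins were called higher and 1.84% lower, so the share of 58.5% at Klf4 and of 53.1% at Esrrb was near the background. The median difference was 26.5 points at Klf4 and 15.2 points at Esrrb, against 17.4 points over all bins. Most bins could not be tested: of the bins with 30 counts in ESCs, 115 at Klf4 and 258 at Esrrb, only these 41 and 32 kept enough counts in differentiated cells.

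The mean over the tested bins was 16.7% in ESCs and 41.6% in differentiated cells at Klf4, a difference of 24.9 ± 2.32 points (95% counting error, 41 bins). At Esrrb it was 9.00% and 28.0%, a difference of 19.0 ± 2.27 points (32 bins). Bins with higher 5mC lay mainly in the wide domains and in element 10 of Klf4. They made up 12 of 15 tested bins of Klf4 element 4, 8 of 11 of Klf4 element 10 and 14 of 19 of Esrrb element 10. In Klf4 element 6, 1 of 8 was higher and 2 were lower.

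Bins that were unmethylated in ESCs, under 20% 5mC, were followed into differentiated cells. In H3K4me1, 19 of 30 such bins at Klf4 (63.3%) had over 30% in differentiated cells, and 8 stayed under 20%. At Esrrb 10 of 29 (34.5%) had over 30% and 13 stayed under 20%. The share over all 103303 such bins was 40.7%. In H3K27ac, 22 of 26 Klf4 bins stayed under 20% and 4 (15.4%) had over 30%, against 7.71% of 76963 bins. Only 4 Esrrb bins could be followed in H3K27ac, of which 1 had over 30%.

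**Figure D5:**
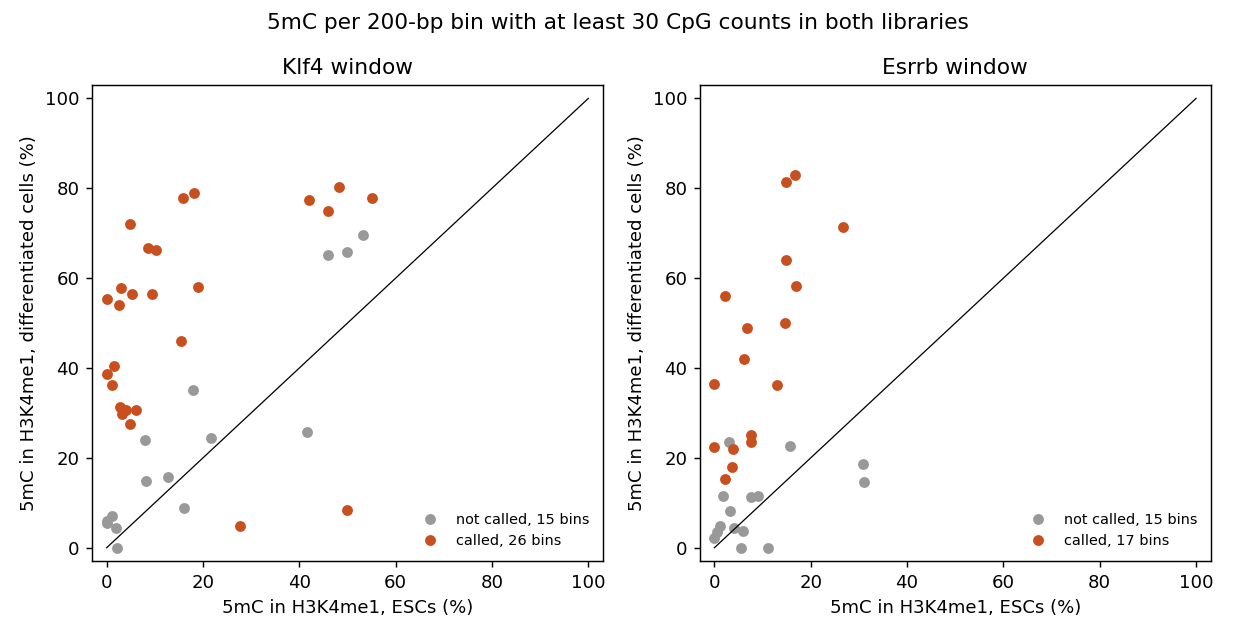
5mC of single H3K4me1 bins in differentiated cells against ESCs (percent on both axes, bins with at least 30 CpG counts in both libraries, orange where the difference was called). At Klf4 24 bins were called higher and 2 lower, and at Esrrb 17 higher and 0 lower.

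The bins with the largest differences among those with at least 60 counts in both libraries show the range. In Klf4 element 10, the H3K4me1 bin chr4:55541001-55541200 held 4.95% 5mC in ESCs (101 counts) and 72.0% in differentiated cells (75 counts; Fisher's exact test, adjusted p = 2.51e-19). In element 9, chr4:55539001-55539200 held 18.1% and 79.0% (83 and 62 counts, exact test, adjusted p = 9.35e-12). In element 4, chr4:55484201-55484400 held 10.3% and 66.3% (117 and 98 counts, exact test, adjusted p = 8.75e-16). These 3 bins changed from the level of unmethylated DNA to that of methylated DNA. The bin in element 4 also changed in H3K27ac, from 6.74% to 48.4%.

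Both Klf4 bins with lower 5mC lay in element 6, where H3K27ac was higher in differentiated cells. The bin chr4:55528601-55528800 held 27.6% in ESCs (123 counts) and 4.92% in differentiated cells (122 counts), a difference of -22.7 points (Fisher's exact test, adjusted p = 1.03e-05). Its H3K27ac counts were 36 in ESCs and 152 in differentiated cells. The other bin, chr4:55529001-55529200, held 50.0% of 56 counts and 8.33% of 36 counts (exact test, adjusted p = 0.000161). The equal averages of element 6 in the 2 states thus sum bins that changed in opposite directions.

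At Esrrb the called bins with at least 60 counts had smaller differences. In element 10, chr12:87814201-87814400 held 6.74% in ESCs (89 counts) and 49.0% in differentiated cells (100 counts; Fisher's exact test, adjusted p = 1.06e-09), and chr12:87817201-87817400 held 12.9% and 36.1% (exact test, adjusted p = 0.00231). In element 2, chr12:87736201-87736400 held 16.9% and 58.2% (118 and 67 counts, exact test, adjusted p = 1.77e-07). Under that minimum the differences were larger, up to 14.9% and 81.4% at chr12:87736801-87737000 in element 2 (114 and 43 counts, exact test, adjusted p = 6.82e-13). Of the 34 Esrrb bins with 30 H3K4me1 counts in differentiated cells, 6 held over 50% 5mC, against 36 of 66 at Klf4. The median of these bins was 20.4% at Esrrb, 52.5% at Klf4 and 53.1% over the genome. In ESCs the medians were 18.8%, 15.4% and 30.2%. Over all H3K4me1 counts of differentiated cells, 5mC was 45.5% in the Esrrb window and 46.5% in the Klf4 window. The contrast between the loci thus holds only for bins that kept 30 counts.

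In H3K27ac few bins had enough counts in both states. Of 26 Klf4 bins, 5 were higher in differentiated cells and 0 lower, and of 4 Esrrb bins 2 were higher. Over 81592 bins of the genome 13.7% were higher and 1.07% lower. The mean of the tested bins was 1.89% in ESCs and 8.51% in differentiated cells at Klf4 (difference 6.63 ± 1.58 points, 95% counting error) and 2.08% and 18.0% at Esrrb (15.9 ± 6.16 points). The Klf4 result depends on the minimum: with 60 counts the difference was 0.596 points and 0 of 16 bins were called, and with 20 counts it was 10.6 points and 11 of 37. The Esrrb difference rests on 4 bins. From pooled counts of the window, which take in sparsely covered bins, it was 32.0 points. The called Klf4 bins were 3 of 4 tested in element 4 and 2 of 19 in element 10. In element 4, chr4:55493201-55493400 had 221 counts with 0.452% 5mC in ESCs and 46 counts with 41.3% in differentiated cells. In element 10, chr4:55545001-55545200 had 233 and 276 counts and held 0.429% and 1.09%. Of these bins with dense H3K27ac in ESCs, the former was called higher and the latter was not. The Esrrb bin with the most H3K27ac counts in ESCs, chr12:87811201-87811400, had 216 in ESCs and 21 in differentiated cells, too few to test.

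Within 1 cell state, the DNA of the 2 marks could be compared bin by bin. In ESCs no bin was called different between H3K4me1 and H3K27ac by Fisher's exact test, 0 of 46 at Klf4 and 0 of 99 at Esrrb, against 0.0999% of 96096 bins of the genome. An unadjusted p under 0.05 was found for 4 at Klf4 and 8 at Esrrb, and for 5.40% of the bins of the genome. On average H3K4me1 DNA held more 5mC than H3K27ac DNA of the same bins, 6.87% against 5.09% at Klf4 (difference 1.78 ± 1.48 points) and 11.0% against 8.42% at Esrrb (2.56 ± 1.18 points). In differentiated cells 0 of 17 Klf4 and 0 of 3 Esrrb bins were called by the same test, against 0.839% over the genome. None of these bins had an unadjusted p under 0.05, against 10.8% over the genome. The difference was 1.43 ± 3.43 points at Klf4 and -1.50 ± 8.69 points at Esrrb, both within counting error. A sum over the whole Klf4 window also takes in bins the other mark lacks. In differentiated cells 46.5% of its counts were methylated in H3K4me1 and 15.1% in H3K27ac. In ESCs the sums were 25.2% and 10.6%. Over the whole Esrrb window the sums were 45.5% and 46.3% in differentiated cells, and 25.4% and 14.2% in ESCs. H3K27ac of differentiated cells had only 50.1 CPM there, and 4 of its 453 listed bins reached 30 counts. The closeness of the 2 sums is therefore no comparison of well-marked DNA.

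In XEN cells Esrrb was low for both marks. The 2 libraries labelled H3K27ac had 61.4 and 62.3 CPM in the Esrrb window, and the 2 labelled H3K4me1 had 18.1 and 23.2 CPM. In bins with at least 4 counts, the only ones listed for XEN, the log2 ratio to ESCs was -2.67 for H3K27ac and -4.16 for H3K4me1 as labelled. With the marks as the file names give them, it was -4.26 for H3K27ac and -2.57 for H3K4me1. Esrrb was lower than in ESCs under both assignments. At Klf4 the libraries labelled H3K27ac had 140 and 130 CPM and those labelled H3K4me1 121 and 114 CPM, log2 ratios of -0.93 and -0.37 as labelled and of -1.14 for H3K27ac and -0.16 for H3K4me1 by file name. Scaled to the median bin, the Klf4 ratios as labelled were -0.81 for H3K27ac and -1.86 for H3K4me1, and at Esrrb they were -2.55 and -5.66.

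The elements of Klf4 differed between the XEN libraries. In element 10 the libraries labelled H3K4me1 had 71.3 and 57.9 CPM with 5.89% and 7.92% 5mC, and those labelled H3K27ac had 26.6 and 21.2 CPM with 42.5% and 48.7% 5mC. In differentiated cells the same element had many counts and little 5mC in H3K27ac, and fewer counts with more 5mC in H3K4me1. In element 11 the libraries labelled H3K27ac had 23.9 and 19.7 CPM and those labelled H3K4me1 5.10 and 5.86 CPM. At Esrrb element 3 the libraries labelled H3K27ac had 11.7 and 8.14 CPM with 17.2% and 13.3% 5mC, and those labelled H3K4me1 had under 4 counts in every bin of one library and 0.255 CPM in the other. Inside the stretch of Esrrb element 10 that kept H3K27ac peaks in differentiated cells, the libraries labelled H3K27ac had 3.29 and 3.21 CPM per kb, and over the rest of the domain 0.148 and 0.196 CPM per kb. Those labelled H3K4me1 had 0.529 and 0.614 CPM per kb inside it and 0.109 and 0.110 CPM per kb over the rest.

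Bins of the libraries labelled H3K27ac held far more 5mC than H3K27ac bins of ESCs. At Klf4 the means of 12 bins were 42.0% and 48.1% in XEN cells and 5.20% in ESCs, and the difference was 39.8 points (SD 4.34, n = 2). Of these bins 8 were called higher in both XEN libraries, where 72.7% of 29246 bins of the genome were higher. At Esrrb the means of 6 bins were 41.6% and 40.2% against 2.68% (difference 38.2 points, SD 1.01, n = 2), and 3 were called higher. These counts move with the library used: with replicate 2 alone 16 of 20 Klf4 and 9 of 12 Esrrb bins were called, and with replicate 1 alone 12 of 15 and 7 of 8. Set against H3K4me1 of ESCs, as the file names would have it, the Klf4 difference was 36.5 points with 9 of 14 bins called, and the Esrrb difference was 32.4 points with 5 of 7 called (38.7% and 37.0% against 5.43%), where 66.7% of 95574 bins of the genome were called. With the label H3K4me1, 1 Klf4 bin and 0 Esrrb bins had enough counts, and the Klf4 bin was not called, against 33.1% of 14264 bins. By file name, 7 Klf4 bins of these libraries could be set against ESC H3K27ac, with a difference of 1.08 points and 0 called, against 9.71% of 28449 bins. At Esrrb there was no such bin. In the 1 Klf4 bin with enough counts in all XEN libraries, 5mC was 7.41% and 7.14% in those labelled H3K4me1 and 26.3% and 32.5% in those labelled H3K27ac. The difference of -22.1 points had an exact permutation p of 0.3333 (two-sided), the smallest that 2 against 2 libraries allow. Fisher's exact test on the pooled counts called this bin, against 5.27% of 14551 bins. That test leaves out the spread between the libraries, and without the second library labelled H3K27ac the bin was not called.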

How the data were processed

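H3K4me1 and H3K27ac ChIP-BS-seq libraries of ESCs, differentiated cells and XEN cells were analysed; input, H3K36me and single-cell samples stayed outside and are not analysed here. Bismark and Bowtie served the authors for alignment to mm9; reads whose CpGs disagreed were dropped, and for each 200-bp bin the deposited tables hold 2 counts, methylated and unmethylated CpGs; XEN tables list bins with at least 4 counts. The deposited peaks of ESCs and differentiated cells carry a score from HOMER. Tool versions are not given in the sources used here. Counts were summed over bins, elements and windows in Python (3.11.15) using pandas 2.3.3, numpy 2.4.6, numba 0.67.0 and scipy 1.17.1, and drawn with matplotlib 3.10.9. CPM used all CpG counts of a library, 12147115 to 58803653. CpGs of 1 read were counted separately although they agree. This and PCR duplicates make counting intervals too narrow and p-values too small. Bins with at least 30 counts in both libraries were tested by Fisher's exact test. P-values were adjusted over the genome (Benjamini-Hochberg, called at adjusted p under 0.05). The calling was checked on simulated counts drawn independently, which cannot show the effect of CpGs that share a read. Elements were H3K27ac peaks of ESCs and differentiated cells merged where they overlapped. Named elements were the 5 with the most H3K27ac counts per window and up to 2 with the largest rise and fall, and named bins the 3 with the largest called differences in each direction at 60 or more counts and the 3 with the most ESC H3K27ac counts; other elements and bins were named after their values were seen. The windows and lists were chosen with earlier results of these data known. Whether a library was 1 repeat or a pool, and whether XEN replicates were separate cultures, was not established, so p-values may cover technical spread only. Other minimums, scalings, peak filters and mark assignments were tried.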

Additional observations from a re-analysis of the deposited data

Results flagged for a closer look

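The 5mC of all H3K4me1 counts in the Klf4 window lay above ESCs in differentiated cells and below in XEN cells as labelled. It was 25.2% in ESCs and 46.5% in differentiated cells, and 19.1% and 24.1% in the 2 XEN libraries labelled H3K4me1, so that the XEN difference to ESCs minus that of differentiated cells was -24.9 points. It was flagged because every library of one state lay above ESCs and every library of the other below, and the difference was not tested. The second XEN library was within counting error of ESCs (interval 22.2 to 26.2 against 24.2 to 26.1). In the 1 bin with enough counts, XEN 5mC was 6.23 points above ESCs, the direction of differentiated cells. The XEN labels go against the data: in the 2 libraries that the file names give as H3K4me1 it was 54.4% and 55.4%, above ESCs as in differentiated cells.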

How the results depend on the processing

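Over the alternatives, 84 of 148 values stayed within the limits of a stable result and 5 changed sign. Of these, 2 were of the XEN minus ESC difference of Klf4 5mC in libraries labelled H3K4me1, which rests on 1 bin: -3.54 points from pooled counts of the window, and -0.37 to 6.10 points without 1 XEN replicate. The other 3 were mark differences in differentiated cells that lay within counting error: -0.125 points at Klf4 with 60 counts, and 5.78 and 2.69 at Esrrb with 20 and 60. Why values moved was not tested beyond the number of bins.
With the XEN marks by file name, that difference was 36.5 (H3K4me1, 9 bins called) and 1.08 points (H3K27ac, 0 called), and log2 occupancy against ESCs was -0.16 (H3K4me1) and -1.14 (H3K27ac) at Klf4 and -2.57 and -4.26 at Esrrb.
Scaling to the median bin gave log2 occupancy for H3K4me1 of -0.44 (differentiated) and -1.86 (XEN) at Klf4 and -2.02 and -5.66 at Esrrb, and for H3K27ac of -0.41 and -0.81 at Klf4 and -2.89 and -2.55 at Esrrb. Esrrb ratios for differentiated cells were -1.86 (H3K4me1) and -3.31 (H3K27ac) over bins with 4 counts, and -3.17 (H3K27ac) over bins in peaks.
With a minimum of 20 counts, which tests more bins, 40 Klf4 and 32 Esrrb bins were called in H3K4me1 of differentiated cells, 11 and 4 in H3K27ac, 15 and 6 in XEN H3K27ac, and 1 Klf4 bin between marks in differentiated cells. The differences were 10.6 points (Klf4 H3K27ac) and 25.3 (Esrrb H3K4me1) in differentiated cells, and 2.47 (Klf4 H3K4me1) and 28.3 (Esrrb H3K27ac) in XEN cells.
With 60 counts, which tests fewer, 8 Klf4 and 8 Esrrb bins were called in H3K4me1 and 0 and 1 in H3K27ac of differentiated cells, and 1 Klf4 bin in XEN H3K27ac. The Klf4 differences were 33.4 points (H3K4me1), 0.596 (H3K27ac) and 55.1 (XEN H3K27ac). Calls of over 20 points only left 1 Esrrb bin in H3K27ac of differentiated cells.
Pooled counts gave differences at Klf4 of 21.4 (H3K4me1) and 4.57 points (H3K27ac) in differentiated cells, 44.3 (H3K27ac) in XEN cells, and between marks 14.6 in ESCs, 31.4 in differentiated and -33.3 in XEN cells. At Esrrb they gave 32.0 and 34.5 (H3K27ac, differentiated and XEN) and 11.1 between marks in ESCs.
Without 1 XEN replicate the H3K27ac difference was 37.4 to 45.4 points at Klf4 (12 to 16 bins called) and 32.8 to 39.97 at Esrrb (7 to 9 called). The Klf4 mark difference in XEN cells was -28.1 to -19.0 points, with 0 to 1 bins called.
With the replicate number as a block, the Klf4 mark difference in XEN cells was -22.1 points and 1 bin was called. The XEN replicate numbers do not pair the libraries: deviations of same-numbered libraries had a correlation of -0.00932 over 14551 bins.
For Esrrb and the XEN libraries labelled H3K4me1, no bin reached the minimum of 30, and at 60 no XEN value could be had for Klf4 H3K4me1, the Klf4 marks or Esrrb H3K27ac, nor for Esrrb H3K27ac by file name. Depth limits 5mC to bins with many counts in both states: of 775 Esrrb bins, 258 reached 30 H3K4me1 counts in ESCs, 34 did so in differentiated cells, and 743 were not tested.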

Other observations

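Single bins of the Klf4 window are given here for XEN cells. The bin chr4:55546001-55546200 in element 10 had 219 H3K27ac counts with 1.37% 5mC in ESCs and 281 with 0.356% in differentiated cells. The XEN libraries labelled H3K4me1 had 117 and 127 counts there, and those labelled H3K27ac had 5 in one and under 4, the least listed, in the other. At the bin chr4:55484201-55484400 in element 4, which was methylated in differentiated cells, the XEN libraries labelled H3K27ac held 53.4% and 70.2% 5mC (Fisher's exact test against ESC H3K27ac, adjusted p = 1.06e-10).

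One of the densest ESC bins of the Esrrb domain was close to empty in the other states. The bin chr12:87845801-87846000 had 162 H3K27ac and 127 H3K4me1 counts in ESCs. Differentiated cells had 2 and 1, and the bin was not listed for XEN cells, where a bin needed 4 counts.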
